A study of Mus musculus with 5 samples.

Results

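The Notch pathway was examined in dorsal pancreatic buds of mouse embryos that lack Ptf1a, which encodes a transcription factor of the basic helix-loop-helix class on which pancreas formation depends. A set of 35 genes was described, made up of 4 receptors, 5 ligands, 19 genes whose products process, modify or assist the receptors and ligands, and 7 targets. They are 35 of the 18193 genes that the arrays measure with a probe set (a group of short probes for 1 transcript) annotated to a single gene symbol. The 35 genes have 70 probe sets in all, and the brightest of each gene, by mean log2 signal over the 5 arrays, stands for it.

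Buds were taken at E10.5 (embryonic day, counted from the vaginal plug) from C57BL/6J embryos of matings between Ptf1a heterozygotes, and the surrounding mesenchyme was removed mechanically. The compared groups were Ptf1a null mutant buds (n = 3 arrays) and Ptf1a heterozygote buds (n = 2 arrays). RNA of 3 pooled buds, linearly amplified in 2 rounds, was hybridised to each array. All controls carry 1 mutant copy of Ptf1a, no wild-type bud was among the samples used here, and the labels do not describe the mutant allele. Which litters went into which pool is not stated, so the tests weigh a difference against variation between pools and no more.

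Notch receptors are membrane proteins that are activated by Delta-like and Jagged ligands on a neighbouring cell. Ligand binding lets ADAM proteases and then gamma-secretase cut the receptor, and the freed intracellular domain enters the nucleus, where it joins the DNA-binding protein RBPJ and Mastermind-like coactivators to switch on targets such as the Hes and Hey repressor genes. In the early pancreas this signalling is known to hold back endocrine differentiation and to keep progenitors undifferentiated. RBPJ is also a known partner of PTF1A itself, in a complex separate from Notch.

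Median linear signal was between 13.7 and 17.5 over the arrays, and correlations across probe sets lay between 0.838 and 0.862, the 3 lowest being those of heterozygote replicate 2 with the nulls. Background was set on each array from control probe sets for bacterial transcripts and lay between 3.03 and 3.29 on the quantile-normalised log2 scale used throughout. For Ptf1a itself, heterozygote signals were 7.10 and 7.33 and null signals 5.21, 6.07 and 5.00, so all nulls lay below both heterozygotes. Its difference of -1.79 did not pass adjustment (limma adjusted p = 0.651). All 16 measured bud epithelium markers, among them Pdx1, Sox9 and Foxa2, were above background on all 5 arrays. With 5 arrays, precision is limited throughout.

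No Notch pathway gene passed the test. The limma fit, adjusted over all 45037 probe sets, called 0 of the 35 and 0 of all probe sets (0% called), and its lowest adjusted p among the 35 was 0.832. An unadjusted p under 0.05 was found for 2 of the 35 (5.71%), against 5.52% of all probe sets. At 1 probe set per gene, the share over all 18193 genes was 4.47%. A fit whose prior variance follows signal level (called the trended fit here) called 8 probe sets, or 0.0178%, none of them among the 35, whose lowest adjusted p was 0.953. That fit gave 3 of the 35 an unadjusted p under 0.05, against 4.93% of all probe sets. At 1 probe set per gene, it gave one to 814 of the 18193 genes.

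Across the 35 genes, 20 were lower and 15 higher in nulls (24 and 11 without normalisation), with a median log2 difference (null minus heterozygote) of -0.10. Over all 18193 genes the median was -0.012 and 50.9% were lower. The receptors had a median of -0.53, the ligands -0.11, the processing genes 0.085 and the targets -0.19. Among genes above background on all 5 arrays, the medians were -0.18 (3 receptors), -0.11 (5 ligands), 0.049 (16 processing genes) and -0.62 (4 targets). The order of the steps thus depended on which genes were counted. Differences were smaller than 0.5 in size for 26 of the 35, and for 10955 of all 18193 genes. A size of 1 or more was reached by 4 of the 35 (Dll1, Hes1, Hey1 and Nrarp), all lower in nulls. Over all 18193 genes, 3419 reached that size in either direction. In 3 genes every null array lay below both heterozygotes, which is 8.57% of the 35 against 10.1% of all genes. In no gene did every null lie above both heterozygotes, against 9.82% of all genes. These shares are near or below the background, so the counts set the pathway apart from other genes in neither direction.

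**Figure D1:**
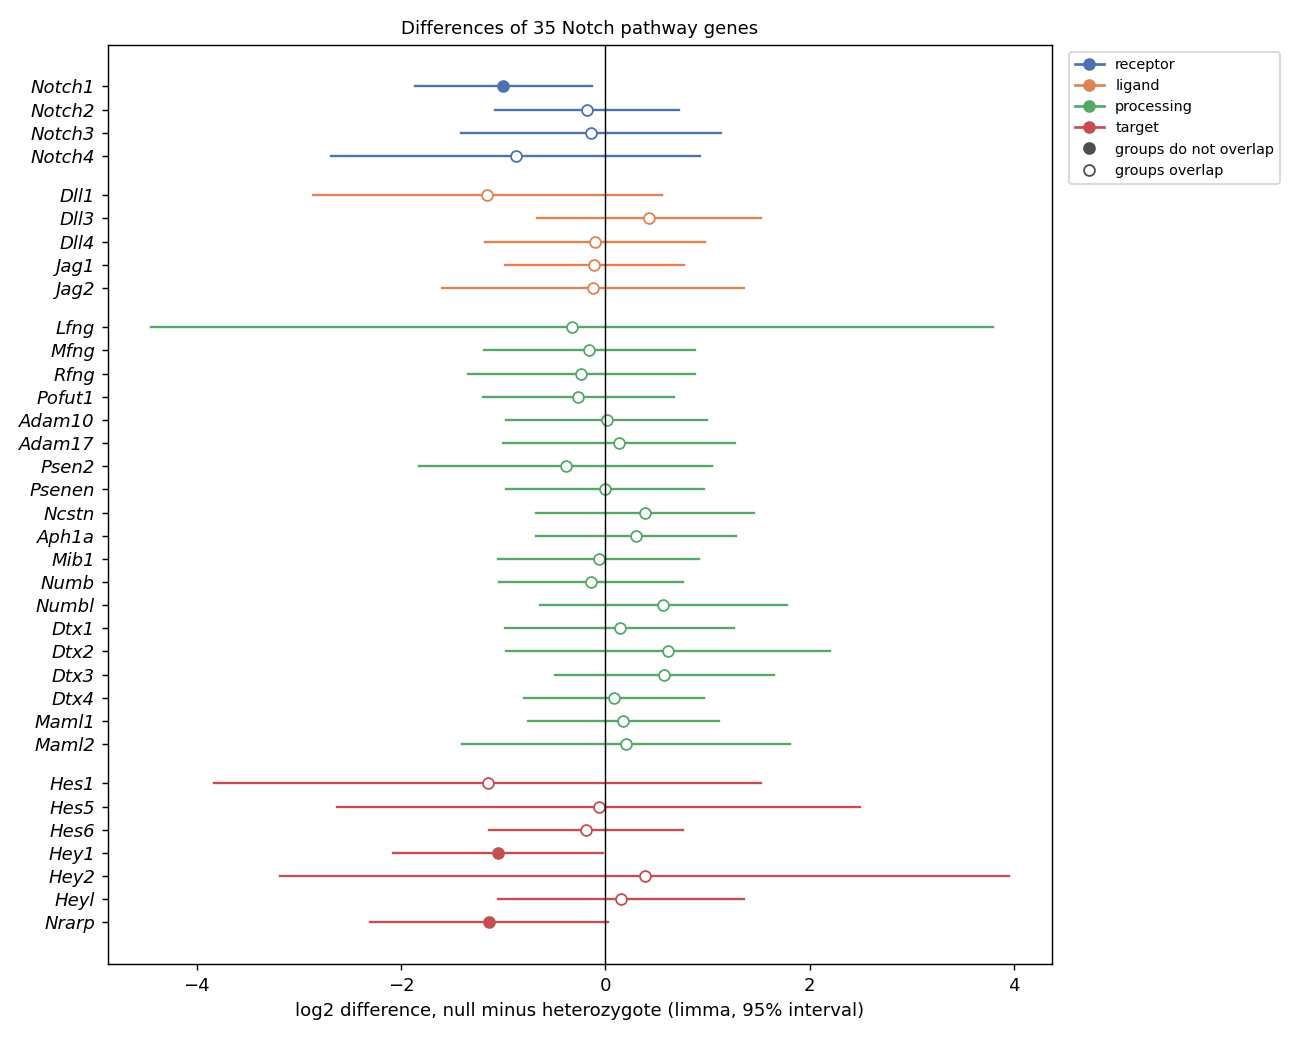
Log2 difference (null minus heterozygote, horizontal axis) of each of the 35 genes with its 95% interval from the untrended limma fit, coloured by step. Filled points mark genes whose groups do not overlap. Notch1, Hey1 and Nrarp are the filled points, near -1, while the processing genes lie on both sides of 0, with a balance that depends on the scaling, between -0.39 and 0.62.

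Notch1 was the receptor with the largest difference. Both heterozygotes (log2 signal 7.40 and 7.19) exceeded the nulls (6.33, 6.22 and 6.34). The nulls lay close together and the groups did not overlap. Heterozygotes averaged 7.30 ± 0.14 (SD, n = 2) and nulls 6.30 ± 0.069 (SD, n = 3), a difference of -0.999 (SE 0.34, 95% interval -1.87 to -0.13), or 2.00-fold lower. It did not pass (limma adjusted p = 0.832, and 0.953 in the trended fit). The second Notch1 probe set, 1418633_at, was dimmer, with 3.86 and 3.81 in heterozygotes and 1.14, 3.80 and 3.37 in nulls. Its groups did not overlap either, but 1 null was at 3.80 against 3.81 in a heterozygote.

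Notch2, a broadly expressed receptor, and Notch3, best known from cells of vessel walls, had overlapping groups. Notch2 had log2 signals of 7.37 and 6.99 in heterozygotes and 6.94, 6.97 and 7.10 in nulls. Its difference was -0.18 (95% interval -1.08 to 0.73), and the second probe set, 1451889_at, had 0.30. Notch3 had 7.23 and 6.36 in heterozygotes and 6.65, 6.20 and 7.11 in nulls, a difference of -0.14 (95% interval -1.41 to 1.13). Its second probe set, 1421964_at, had 0.32. For neither receptor did the probe sets share a direction, and the intervals admit changes of about the size seen for Notch1.

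Notch4, an endothelial receptor, had log2 signals of 5.30 and 5.02 in heterozygotes and 4.58, 3.11 and 5.15 in nulls. The spread within nulls was wide, and null replicate 2 was not above background. Its difference was -0.88 (SE 0.70, limma adjusted p = 0.991), which fell in size to -0.30 without null replicate 2 and was -1.32 without null replicate 3. The 2 dimmer probe sets were also lower in nulls, by -0.86 and -1.62. The general endothelium markers did not separate the groups: 9 of 18 were higher and 9 lower in nulls, with a median of -0.14. The summed linear signal of those 18 was 919 and 629 in heterozygotes and 564, 654 and 1029 in nulls, none of the 18 was at or below background on all 5 arrays, and the signal was lowest on null replicate 1 and highest on null replicate 3. Their part in the differences of Notch1, Notch4, Hey1 and Nrarp was not tested. In pooled buds, fewer cells of a type and less RNA per cell cannot be told apart.

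**Figure D2:**
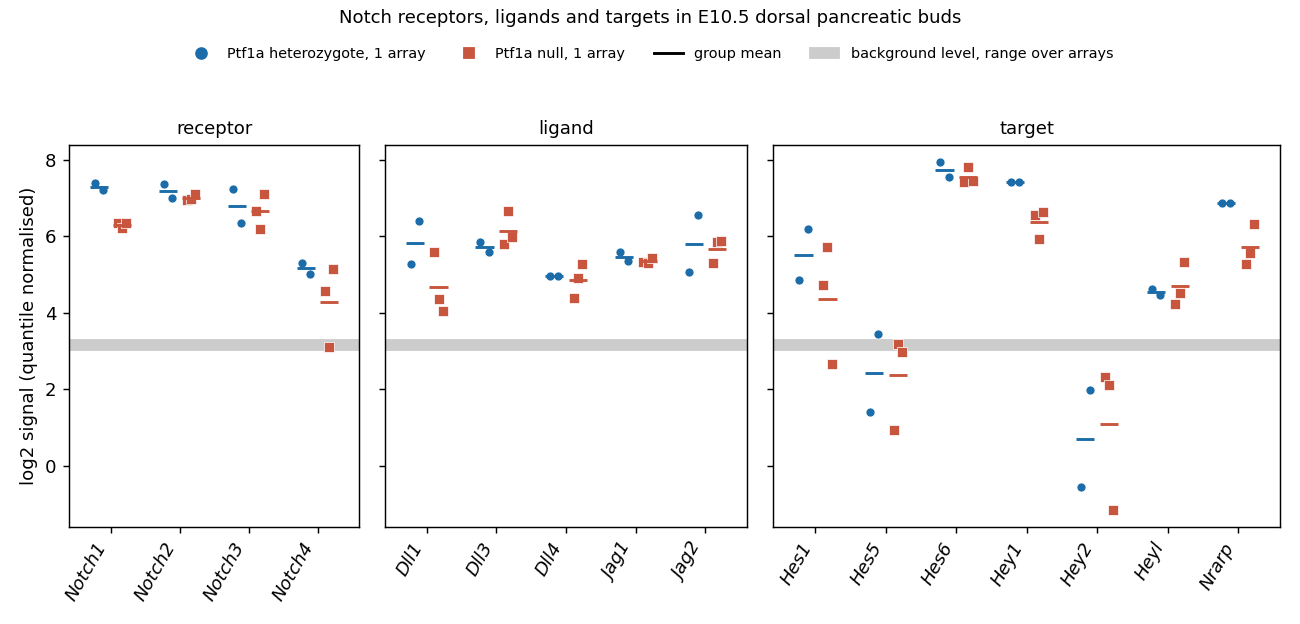
Quantile-normalised log2 signal (vertical axis) of each receptor, ligand and target on each array, with heterozygotes as circles, nulls as squares, group means as bars and the range of the background level in grey. Notch1, Hey1 and Nrarp show separate groups, with both heterozygotes above all 3 nulls. Hey2 lies below background on every array. Heights of different genes are not comparable, since each probe set has its own brightness.

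Among the ligands, Dll1 had the largest difference. Dll1 is a Delta-like ligand that endocrine precursors display to their neighbours, and it is a known target of Neurog3 and of Ptf1a. Its log2 signal was 5.27 and 6.39 in heterozygotes and 5.60, 4.37 and 4.05 in nulls. Null replicates 2 and 3 lay below both heterozygotes, and null replicate 1 lay between them. The difference was -1.16 (SE 0.66, 95% interval -2.86 to 0.55), which did not pass (limma adjusted p = 0.986). Leaving out heterozygote replicate 2 brought it to -0.59, and leaving out the other heterozygote gave -1.70. Signal of Neurog3, whose product commits progenitors to the endocrine lineage, was 6.20 and 7.99 in heterozygotes and 7.61, 6.92 and 6.58 in nulls. Both genes were highest on heterozygote replicate 2. Within the nulls both were highest on replicate 1 and lowest on replicate 3. The 9 measured endocrine differentiation factors had a median difference of -0.010. Relative to each factor's mean, their median was 0.65 on heterozygote replicate 2 and -0.48 on null replicate 3, and their part in the Dll1 difference was not tested.

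The other Delta-like ligands had overlapping groups. Dll3, a divergent family member that acts inside the signal-sending cell rather than as an activating ligand, had 5.84 and 5.59 in heterozygotes and 5.80, 6.65 and 5.98 in nulls. It was the sole ligand with a higher mean in nulls, by 0.42 (95% interval -0.67 to 1.52). Dll4, known from endothelium, had 4.96 and 4.97 in heterozygotes and 4.39, 4.91 and 5.27 in nulls. Its difference was -0.10 (95% interval -1.18 to 0.98), with 0.023 at the dimmer probe set 1421826_at.

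Neither Jagged ligand separated the groups. Jag1, the ligand known for its role in bile duct formation, had 5.58 and 5.34 in heterozygotes and 5.33, 5.30 and 5.44 in nulls, a difference of -0.11 (95% interval -0.98 to 0.77). Its other probe sets had -0.89 at 1421105_at and 0.94 at 1421106_at, and the latter was above background on 2 arrays. Jag2 had 5.06 and 6.54 in heterozygotes and 5.31, 5.85 and 5.88 in nulls. All 3 nulls lay between the heterozygotes, and the difference was -0.12 (95% interval -1.60 to 1.36), against 0.73 at the dimmer 1426431_at.

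Of the 7 targets, Hey1 and Nrarp had groups that did not overlap. Hey1 encodes a basic helix-loop-helix repressor that Notch induces directly. Its log2 signal was 7.43 and 7.42 in heterozygotes and 6.56, 5.93 and 6.62 in nulls. The heterozygotes were nearly identical and every null was lower, with null replicate 2 the lowest. The mean was 6.37 ± 0.39 (SD, n = 3) in nulls, a difference of -1.05 (SE 0.40, 95% interval -2.08 to -0.026), or 2.07-fold lower. The difference did not pass (limma adjusted p = 0.895, and 0.953 in the trended fit), and Hey1 has no other probe set here.

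Nrarp encodes a small ankyrin-repeat protein that Notch induces and that in turn dampens Notch by promoting loss of the intracellular domain. Its log2 signal was 6.86 and 6.87 in heterozygotes and 5.29, 5.57 and 6.32 in nulls. Here null replicate 1 was the lowest and null replicate 3 the nearest to the heterozygotes. The mean was 5.73 ± 0.54 (SD, n = 3) in nulls, a difference of -1.14 (SE 0.45, 95% interval -2.31 to 0.028), or 2.20-fold lower, at limma adjusted p = 0.915. The dimmer probe set, 1417986_at, had -0.29 with overlapping groups.

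The heterozygotes of Notch1, Hey1 and Nrarp differed from each other by little, and null replicate 3 was the highest null for all 3. For Notch1 that rank rests on 6.34 against 6.33 on null replicate 1. Null replicate 2 was the lowest for Notch1 and Hey1, and null replicate 1 for Nrarp. The endothelium sum was also highest on null replicate 3 (1029), and it was 919 and 629 in heterozygotes. No gene of the marker lists passed either fit, and the values of several lists stand beside these genes as descriptions. Erythroid transcripts were lower in nulls for 11 of 12 genes (median -0.72), with 7 of the 12 (58.3%) whose nulls all lay below both heterozygotes, against 10.1% of all genes. Their summed linear signal was 9844 and 12583 in heterozygotes and 9328, 8597 and 8352 in nulls. Mesenchyme markers were higher in nulls for 20 of 24 genes (median 0.46), with summed signals of 2756 and 2268 in heterozygotes and 2976, 2657 and 3265 in nulls, so that 1 null lay between the heterozygotes. In 7 of the 24 (29.2%) every null lay above both heterozygotes, against 9.82% of all genes. In each of these lists 1 gene was at or below background on all 5 arrays. Neural crest and glia markers were higher in nulls for 6 of 9 genes (median 0.46). Of the 9, 2 were wholly above (22.2%) and 1 wholly below (11.1%), against 9.82% and 10.1% of all genes. Their summed signals were 359 and 302 in heterozygotes and 436, 449 and 494 in nulls, which do not overlap, and none of the 9 was at or below background on all 5 arrays. Bud epithelium markers were lower in nulls for 9 of 16 genes (median -0.099), with differences from -2.68 to 0.92. Of the 16, 4 were wholly below (25.0%) and 3 wholly above (18.8%), against 10.1% and 9.82% of all genes. Their summed signals were 5015 and 6033 in heterozygotes and 6951, 7191 and 5579 in nulls. The part of endothelium, red cells, mesenchyme, neural crest or bud epithelium in the Notch differences was not tested.

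**Figure D3:**
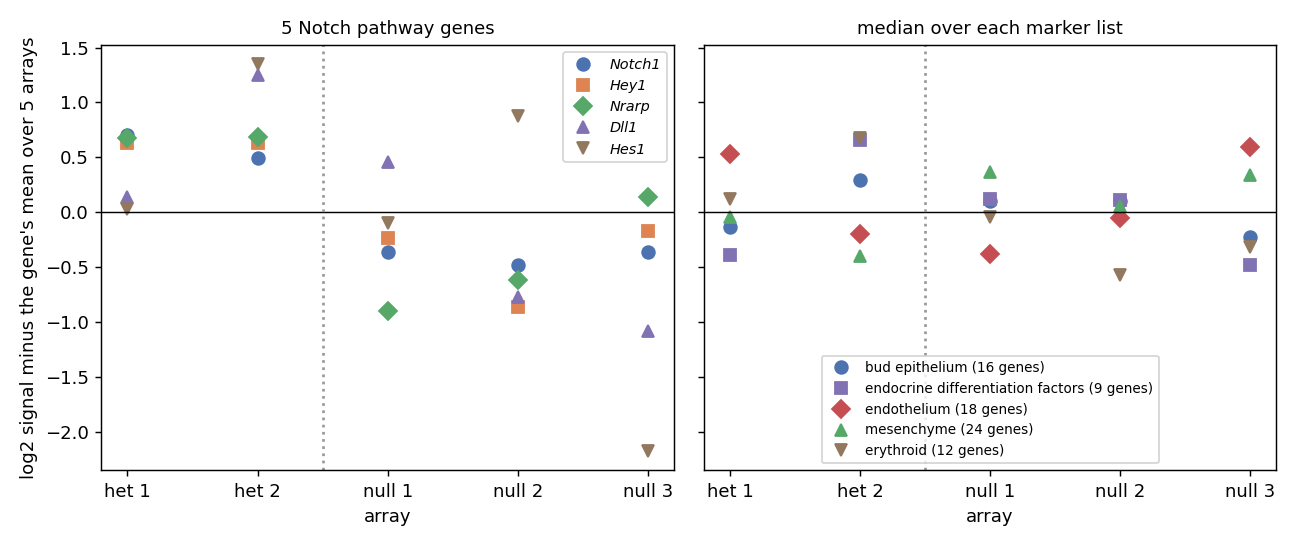
Left, log2 signal of Notch1, Hey1, Nrarp, Dll1 and Hes1 on each array, relative to each gene's mean over the 5 arrays. Right, the median of the same quantity over each of 5 marker lists. Notch1, Hey1 and Nrarp are above their means on both heterozygotes, Dll1 and Hes1 peak on heterozygote replicate 2 and are lowest on the third null array, and the endothelium median is 0.53 and -0.20 on the heterozygotes and 0.59 on null replicate 3.

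Hes1, the repressor through which Notch is known to keep Neurog3 off, varied widely between pools. Its log2 signal was 4.86 and 6.18 in heterozygotes and 4.73, 5.71 and 2.66 in nulls. The groups overlapped, and null replicate 3 was below background. Heterozygotes averaged 5.52 ± 0.93 (SD, n = 2) and nulls 4.36 ± 1.56 (SD, n = 3). The difference of -1.15 (SE 1.04, 95% interval -3.83 to 1.52) was therefore within the spread between pools (limma adjusted p = 0.992), and without null replicate 3 it was -0.30.

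The remaining targets showed no separation. Hes6, a family member found in differentiating endocrine and neural cells that is not itself switched on by Notch in most settings, had 7.93 and 7.55 in heterozygotes and 7.42, 7.79 and 7.43 in nulls, a difference of -0.19 (95% interval -1.14 to 0.76). Its second probe set gave -0.22. Heyl, a Hey relative known from vessel walls, had 4.62 and 4.46 in heterozygotes and 4.23, 4.51 and 5.32 in nulls, a difference of 0.15. Its dimmer probe sets had 1.48 at 1438886_at and -0.17 at 1419303_at, the latter above background on no array. Hes5, a Notch target of the nervous system, was above background on heterozygote replicate 2 (3.44) and null replicate 2 (3.20) alone. Its difference was -0.066, against 1.03 at 1456010_x_at, which was above background on 1 array. Hey2 was below background on all 5 arrays, so no fold is given.

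The start sites of Notch1 and Nrarp, whose groups were separate, can be set beside that of a classical target, Hes5. RefSeq promoter windows (build GRCm38.p6) were used, which hold 28 of the 35 genes. Hes1, Hey1, Heyl, Mfng, Dtx3, Dtx4 and Mib1 had no entry, so Hey1, the other target with separate groups, is not shown. The 250 bases upstream of the start are printed below, 5′ to 3′, for Nrarp (chr2:25180508-25180757, plus strand), Notch1 (chr2:26503823-26504072, minus strand) and Hes5 (chr4:154960673-154960922, plus strand). Capitals mark the E-box CANNTG, the general form of the sites that basic helix-loop-helix proteins bind. They also mark the RBPJ core TGGGAA, read on both strands (TTCCCA on the other). The E-box reads the same on both strands, and no matches overlap.
Nrarp: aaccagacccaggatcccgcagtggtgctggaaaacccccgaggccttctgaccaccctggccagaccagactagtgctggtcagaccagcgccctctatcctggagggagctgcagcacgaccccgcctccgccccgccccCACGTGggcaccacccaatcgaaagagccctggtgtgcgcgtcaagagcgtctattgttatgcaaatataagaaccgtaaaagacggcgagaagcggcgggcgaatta
Notch1: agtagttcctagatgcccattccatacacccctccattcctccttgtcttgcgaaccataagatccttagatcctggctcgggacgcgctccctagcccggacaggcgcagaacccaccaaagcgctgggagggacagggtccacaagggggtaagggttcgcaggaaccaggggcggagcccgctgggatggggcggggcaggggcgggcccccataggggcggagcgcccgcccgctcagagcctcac
Hes5: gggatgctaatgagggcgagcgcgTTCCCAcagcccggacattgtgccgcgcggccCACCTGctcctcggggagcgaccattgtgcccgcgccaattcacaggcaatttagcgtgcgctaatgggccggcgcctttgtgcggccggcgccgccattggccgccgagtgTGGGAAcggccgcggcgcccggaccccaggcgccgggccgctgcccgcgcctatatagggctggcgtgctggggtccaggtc
The Nrarp window holds 1 E-box (CACGTG) and no RBPJ core, the Notch1 window neither, and the Hes5 window 1 E-box and 2 RBPJ cores. Over all 32851 windows in the table, 66.2% hold an E-box, 21.6% the RBPJ core and 14.8% both. Of the 35 windows of the Notch genes, 7 hold the RBPJ core (20.0%) and 23 an E-box (65.7%), and all 7 with the RBPJ core also hold an E-box (20.0% with both). A match is a string of letters and was not tested for binding.

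The genes that process Notch had differences smaller than the half-width of their 95% intervals, whose median was 1.07. Of the 19, 12 were higher and 7 lower in nulls, but 9 were higher with median centring and 8 without normalisation, so the balance of directions depends on the scaling. All 19 had overlapping groups, and differences ran from -0.39 to 0.62. Adam10, the protease that makes the first cut after ligand binding, had 9.07 and 9.50 in heterozygotes and 9.48, 9.40 and 9.00 in nulls. Its difference was 0.013, with a 95% interval of -0.97 to 1.00. Adam17, a related protease, had 0.13 at its brightest probe set. Both proteases thus differed by less than the spread between pools.

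Some dimmer probe sets of the proteases differed from the brightest. For Adam10, 1450104_at had every null below both heterozygotes (-0.52), and 1460083_at, above background on 2 arrays, had -1.78 with overlapping groups. The mean over all 4 Adam10 probe sets was -0.56. For Adam17, 1421857_at had every null above both (0.97), while 1421859_at had -0.30. So the direction of either protease depends on the probe set.

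Gamma-secretase, which makes the second cut, was represented by 4 subunit genes. Psenen, the smallest subunit, had 8.13 and 7.79 in heterozygotes and 7.86, 8.26 and 7.76 in nulls. Its group means were 7.96 in both, with an interval of -0.97 to 0.97 for the difference. Aph1a, the scaffold subunit, had 0.30 (its other probe sets -0.052 and -0.0082), and Ncstn, which encodes the substrate-recruiting subunit nicastrin, 0.39 (its other probe set -0.70). Psen2, a catalytic presenilin, had -0.39 and, at its second probe set, -0.37. The signs differ between subunits, and no subunit's groups separated.

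The 4 glycosyltransferase genes had slightly lower means in nulls without separating, but the sign held in all alternatives for Pofut1 alone. Lfng was higher with an offset of 16 before log2 and in other alternatives (up to 1.07). Mfng reached 0.037 and Rfng 0.12. Pofut1 adds the O-fucose that receptors need, and the Fringe enzymes encoded by Lfng, Mfng and Rfng extend it and so bias receptors towards Delta-like ligands. Pofut1 had 8.86 and 8.35 in heterozygotes and 8.39, 8.27 and 8.36 in nulls, a difference of -0.26 (95% interval -1.20 to 0.67). Mfng had 8.01 and 7.64 in heterozygotes and 7.28, 7.94 and 7.78 in nulls, a difference of -0.16, and Rfng had -0.23. Lfng was above background on 3 of 5 arrays and ranged from -0.51 to 3.79, so its difference of -0.33 has an interval of -4.45 to 3.80. The other Pofut1 probe sets had 0.34 at 1456323_at and -0.75 at 1450137_at, the latter with every null below both heterozygotes.

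Mib1, the ubiquitin ligase that ligands need in the sending cell, had 6.93 and 7.48 in heterozygotes and 7.19, 6.94 and 7.30 in nulls. Its difference was -0.066 (95% interval -1.05 to 0.92), and its dimmer probe sets had -0.15 and -0.16. Numb, which antagonises Notch in 1 daughter of a dividing cell, had -0.14 (95% interval -1.04 to 0.76). Its dimmer probe set 1425368_a_at, above background on 1 array, had 1.45, with every null above both heterozygotes. Numbl, its close relative, had 3.45 and 2.97 in heterozygotes and 4.24, 3.21 and 3.88 in nulls, near background and 0.57 higher in nulls.

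The 4 Deltex genes are named for a protein that binds the Notch intracellular domain and acts on its trafficking. All 4 had higher means in nulls, but Dtx4 was lower with median centring or without normalisation. The sign also turned in some alternatives for Dtx1 and Dtx2. Dtx2 had the largest difference of the processing genes, with 6.06 and 4.40 in heterozygotes and 5.76, 6.20 and 5.56 in nulls (0.62, 95% interval -0.97 to 2.20). The low value of heterozygote replicate 2 stands apart there, and without that array the difference was -0.21. Dtx3 had 6.18 and 5.39 in heterozygotes and 6.16, 6.44 and 6.49 in nulls, 0.58 higher (95% interval -0.49 to 1.65). Dtx1 and Dtx4 had 0.14 and 0.085, and the dimmer Dtx1 probe set, 1458643_at, had -0.52. The Mastermind-like coactivator genes Maml1 and Maml2 had 0.18 and 0.21, and Maml2 was near background.

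**Figure D4:**
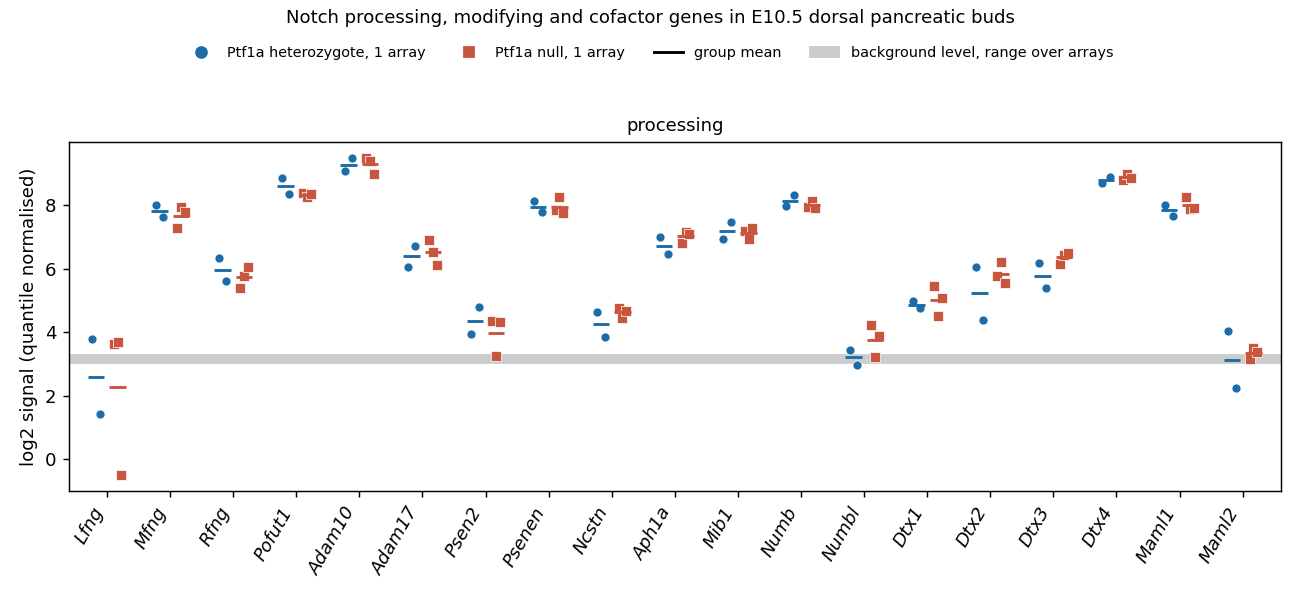
Quantile-normalised log2 signal (vertical axis) of the 19 processing, modifying and cofactor genes on each array, with heterozygotes as circles, nulls as squares, group means as bars and the range of the background level in grey. Groups overlap for every gene. Lfng, Numbl and Maml2 lie at or around background, and heights of different genes are not comparable.

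Several probe sets were available for 25 of the 35 genes, and all probe sets of a gene shared a direction for 11 of these. Where at least 2 were above background on all 5 arrays (13 genes), they shared a direction for 6. In 4 of the 35 genes (Notch3, Dtx2, Maml1 and Hes6) the brightest probe set carries a name ending in _s_at or _x_at, which marks sets that can match several transcripts.

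A further list of Notch pathway genes ran from nuclear partners to regulators of receptor turnover. It had 34 measured entries, of which 15 were higher and 19 lower in nulls (median -0.069). Aph1b (-0.073) was entered under its own name and again under that of Aph1c, so the lower entries hold a repeat. None passed either fit. Rbpj, the DNA-binding partner of both Notch and PTF1A, had 9.22 and 9.10 in heterozygotes and 9.62, 9.38 and 9.19 in nulls, a difference of 0.24 with overlapping groups. The dimmer Rbpj probe sets had 0.27 at 1418114_at and -0.14 at 1448957_at. Every null lay below both heterozygotes in 4 of the 34 entries and above both in 3, against 10.1% and 9.82% of all genes. The lower ones above background were Dlk1, a Delta-like protein without the receptor-activating domain (-0.73), Tle5, a short relative of the Groucho co-repressors (-0.33), and Furin, the convertase that trims receptors on their way to the surface (-0.43). Hes3 was the fourth and was above background on no array.

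The 3 higher ones were Fbxw7 and the co-repressor genes Tle3 and Tle4. Fbxw7 encodes the ubiquitin ligase adaptor that marks the Notch intracellular domain for destruction. Its log2 signal was 7.06 and 6.76 in heterozygotes and 7.80, 7.40 and 7.58 in nulls. The difference was 0.68 (limma adjusted p = 0.979), and its second probe set had 0.088. Tle3 and Tle4, whose products Hes and Hey proteins recruit, had 0.17 and 0.30. The dimmer Tle3 probe sets had -0.026 at 1458512_at, -0.15 at 1449554_at and -0.71 at 1419654_at, the last with every null below both heterozygotes. The dimmer Tle4 probe sets had 0.44 at 1430384_at and -0.62 at 1425650_at, with overlapping groups.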

How the data were processed

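The members and gene lists were chosen with earlier results of these data known. The table the authors deposited gives, per array, a linear intensity for 45101 probe sets. Per the submitters' processing notes the tools were GCOS and RMA, whose versions and roles are unstated. The background step is likewise unstated. The design had assumed log2 values. Because the deposited intensities were linear, with array medians spanning 0.354 on the log2 scale, they were put on a log2 scale with no offset and quantile normalised. Tests excluded 64 control probe sets. Amplification primed from the poly(A) tail dims probe sets far from a transcript's end.

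Of the 45037 tested probe sets, 34945 had 1 symbol in the platform annotation, 932 several and 9160 none, and 34741 were matched by gene ID to RefSeq symbols, which changed 0 names. Gene positions are not printed, since no genome build is stated for the arrays. The background level was the 95th percentile of 27 Bacillus subtilis control probe sets on each array, and no detection calls were used.

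The comparison of genotypes used limma 3.58.1 in R 4.3.3 (lmFit and eBayes, genotype as the sole term, two-sided), with Benjamini-Hochberg adjustment over all probe sets and a threshold of 0.05, tested on simulated data. The trended fit sets trend and robust in eBayes. An exact permutation test of 2 against 3 arrays cannot give a p below 0.1, so none is given. Values are printed in full for members whose groups do not overlap, for receptors, ligands and targets above background on every array of a group, and for the largest difference of each step. Other members were given in full where they stand for a kind of enzyme. Isl1 is in the endocrine and the mesenchyme list. Other probe sets are given where their sign differs. Alternatives changed the normalisation, the offset, the treatment of dim values, the variance model, the replicate block, the probe set per gene and the arrays included.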

Additional observations from a re-analysis of the deposited data

How the results depend on the processing

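The limma fit called 0 of the 35 genes under every alternative run. Over all probe sets it called 0 (2484 at an unadjusted p under 0.05), except that the trended fit called 8. The members' median of -0.10 was -0.22 without normalisation, where the median of all probe sets moved by -0.11, and it ranged from -0.14 to 0.0049 with an array left out. The median turned sign without heterozygote replicate 1 alone. With the replicate block it was -0.14 and 0 probe sets were called. Deviations of same-numbered arrays from their group means correlated at -0.017 (replicate 1) and 0.0080 (replicate 2). With 2 heterozygotes, the deviation of each is that of the other with the sign turned. These values therefore cannot show whether same-numbered arrays share a litter or a day, which the labels do not state.

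Notch1, Hey1 and Nrarp kept their sign in all 13 alternatives, between -1.15 and -0.87, -1.20 and -0.84, and -1.44 and -0.72. Leaving out arrays says little here, as the groups do not overlap. In all, 12 of the 35 genes kept their sign and 23 did not. With median centring the sign turned for Adam10 (-0.15), Psenen (-0.13) and Dtx4 (-0.070), and without normalisation for Adam10 (-0.20), Adam17 (-0.0075), Psenen (-0.18) and Dtx4 (-0.11). It also turned for Lfng with the offset of 16 (0.022) and with the replicate block (1.06), for Heyl with the replicate block (-0.17), and for Maml2 (-0.32) and Hey2 (-0.060) with values raised to background. With the mean over all probe sets of a gene it turned for Notch2 (0.060), Notch3 (0.089), Jag2 (0.30), Adam10 (-0.56), Ncstn (-0.16), Numb (0.65), Dtx1 (-0.19) and Hes5 (0.48). The cause was not tested.

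With an array left out, differences ranged across 0 for Notch2 (-0.37 to 0.012), Notch3 (-0.57 to 0.30), Jag1 (-0.23 to 0.012), Jag2 (-0.86 to 0.61), Dll4 (-0.31 to 0.13), Lfng (-1.51 to 1.07), Mfng (-0.34 to 0.037), Rfng (-0.58 to 0.12), Adam10 (-0.20 to 0.22), Adam17 (-0.19 to 0.46), Psen2 (-0.81 to 0.038), Psenen (-0.17 to 0.17), Ncstn (-0.015 to 0.79), Mib1 (-0.34 to 0.21), Numb (-0.31 to 0.033), Dtx1 (-0.078 to 0.40), Dtx2 (-0.21 to 1.44), Dtx4 (-0.023 to 0.19), Maml2 (-0.68 to 1.10), Hes5 (-1.07 to 0.93), Hes6 (-0.39 to 0.0049), Hey2 (-0.88 to 1.66) and Heyl (-0.17 to 0.37). They kept their sign but moved by over 1.5 times for Notch4 (-1.32 to -0.30), Dll1 (-1.70 to -0.59), Dll3 (0.17 to 0.59), Pofut1 (-0.52 to -0.011), Aph1a (0.031 to 0.57), Numbl (0.33 to 0.87), Dtx3 (0.18 to 0.97), Maml1 (0.000048 to 0.35) and Hes1 (-1.86 to -0.30). Dim signal limits Lfng, Numbl, Maml2, Hes5 and Hey2, and the 5 arrays limit every value: the half-width of the 95% interval had a median of 1.10 over the 35 genes, so differences under about that size could not be told from 0.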
